A study of Homo sapiens with 6 samples.

Results

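The 10 human Toll-like receptor genes, TLR1 to TLR10, were followed in RPMI8226 cells, a human multiple myeloma line that grows in suspension and has plasma cell features. The genes were chosen by symbol from the rows of the deposited count table on the autosomes and the X chromosome, so they are 10 of 63677 genes, and the rule that picks them uses no measured value. All cells were wild type, and 3 cultures were exposed for 6 h to 100 nM GST-PTR1, a fusion of glutathione-S-transferase (GST) with PTR1, which is a domain of HAPLN1, a protein of the extracellular matrix, while 3 control cultures received 100 nM GST for the same time. Every sample is this 1 cell line at 1 time point, and GST-PTR1 was purified from Escherichia coli and had been assessed for bacterial lipopolysaccharide. The paper reports that a Limulus assay put this contamination some orders of magnitude under the amount its NF-κB gel-shift assay can detect in these cells. Its part in the results below was not tested. The question was which Toll-like receptors these cells transcribe and which of them differed between the treatments.

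Toll-like receptors are membrane proteins that recognise conserved molecules of microbes or of damaged tissue through an outer domain of leucine-rich repeats. An inner TIR domain then recruits adaptor proteins, MYD88 for most members and TICAM1 (TRIF) for TLR3 and TLR4, which lead to NF-κB and to interferon regulatory factors. TLR1, TLR2, TLR4, TLR5, TLR6 and TLR10 act at the cell surface, whereas TLR3, TLR7, TLR8 and TLR9 read nucleic acids in endosomes. B lineage cells are known to carry several of them.

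Polyadenylated RNA was read as counts per gene, with library totals from 15202503 to 44688737 counts. Libraries are named here by treatment and by a letter in ascending order of total, so GST-A, GST-B, GST-C and PTR1-A, PTR1-B, PTR1-C carry no pairing. Plasma cell markers were abundant, with a summed level of 4285 to 5238 counts per 1000000 counts of the library (CPM) in the GST libraries and 3743 to 4326 with GST-PTR1, and none of the 9 was at 0. Of these 9 markers 3 were called higher and 3 lower with GST-PTR1 by the edgeR test described below, against 9.15% and 11.4% of all tested genes. Summed monocyte markers were at 3.64 to 4.95 CPM and 6.86 to 11.7 CPM in GST and GST-PTR1 libraries. S100A9 was the largest part of this sum, at 2.50 ± 0.941 and 6.99 ± 2.56 CPM. Of 9 monocyte markers 3 were tested and 2 were called higher, S100A9 at a log2 fold change of 1.68 (edgeR adjusted p = 0.00462) and FCGR1A at 1.22 (0.0425), but FCGR1A was called in 6 of 13 alternative fits and, of those without 1 library, in the fit without GST-A alone (adjusted p of 0.0653 to 0.162 in the others). CD14, the other tested marker, was not called, at a log2 fold change of -0.21 (edgeR adjusted p = 0.748). Of the untested markers, CSF1R and CD68 had a lower mean CPM with GST-PTR1, and S100A8 and ITGAM a higher one, all with overlap between treatments. LYZ and MARCO were at 0 in every GST library and had 1 count each with GST-PTR1. Summed T cell markers stayed at or below 0.132 CPM and summed stromal markers at or below 0.554 CPM. Summed B cell markers, at 293 to 338 CPM and 213 to 273 CPM, came almost wholly from the complement receptor CR2. The part of these marker levels in the receptor results was not tested. In bulk RNA, fewer cells with a transcript and less transcript per cell cannot be told apart.

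Levels were compared between receptors as RPKM, which is CPM on library totals divided by the exon length in kilobases. In the GST cultures TLR4, the receptor for bacterial lipopolysaccharide, stood highest at 11.1 ± 0.885 RPKM (SD, n = 3). TLR1, TLR6 and TLR7 followed together at 3.94 ± 0.566, 3.61 ± 0.379 and 3.36 ± 0.295 RPKM, and each neighbouring pair of these overlapped between libraries. The other members were far below, led by TLR3 at 0.162 ± 0.0411 RPKM. TLR9 reads could be counted in only 10.8% of its exon bases, as described below, so its level and place are not known. With GST-PTR1 the order was TLR4 at 7.53 ± 0.182, TLR7 at 6.99 ± 0.161, TLR1 at 5.59 ± 0.673 and TLR6 at 2.43 ± 0.183 RPKM, with no overlap between neighbours in this order. TLR9 apart, TLR4 was thus the most abundant member in 6 of 6 libraries, and TLR7 moved from place 4 in the GST order to place 2. Set against all 16926 tested genes, TLR4 in GST cultures lay above 70.6% of them and TLR7 rose from above 42.9% to above 62.3%.

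**Figure D1:**
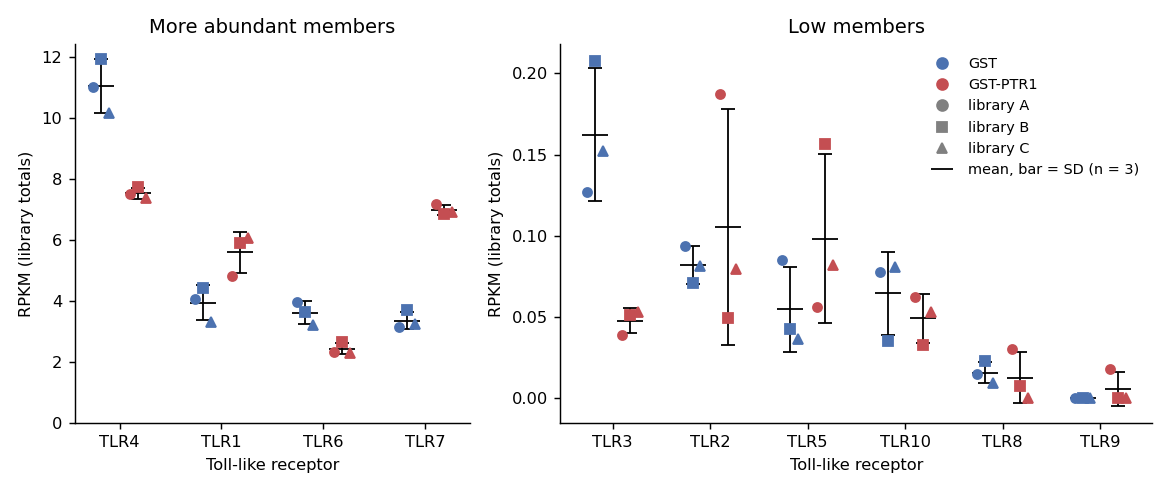
RPKM of each Toll-like receptor (y axis, on library totals) in the 3 GST libraries (blue) and the 3 GST-PTR1 libraries (red), with marker shape for the library and black bars for mean and SD; the panels have different scales and both start near 0. TLR4 falls from 11.1 to 7.53 RPKM between the means while TLR7 climbs from 3.36 to 6.99, and the members on the right stay below 0.21 RPKM. The values of TLR9 do not measure its transcript, since most of its exon bases could not be counted.

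On plain library totals, the summed RPKM of the 10 receptors was 22.3 ± 1.89 in GST cultures and 22.9 ± 0.607 with GST-PTR1 (SD, n = 3). The ranges overlapped, with an exact two-sided permutation p of 0.8. This sum depends on how libraries are scaled. The TMM factors given below would lower it in every GST library and raise it in every GST-PTR1 library, and it was not tested on that scale. The shares within a library do not depend on scaling. Both sum and shares leave out TLR9 reads from all but 10.8% of its exon bases. The makeup of that sum differed between the treatments. TLR4 held 49.5 ± 0.68% of it in GST cultures and 33.0 ± 0.793% with GST-PTR1. TLR7 held 15.1 ± 1.09% and then 30.6 ± 1.52%. The share of TLR1 went from 17.6 ± 1.1% to 24.4 ± 2.45%, and that of TLR6 from 16.2 ± 1.28% to 10.6 ± 0.614%. None of these 4 shares overlapped between the treatments, and each had an exact permutation p of 0.1, the smallest that 3 against 3 libraries allow.

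Differences between the treatments were tested in edgeR by its quasi-likelihood method on the 16926 genes left by its filter on low counts, and a gene was called at an adjusted p (Benjamini-Hochberg) under 0.05. The filter kept 5 of the 10 receptors, TLR1, TLR3, TLR4, TLR6 and TLR7, and left out TLR2, TLR5, TLR8, TLR9 and TLR10. TLR7 and TLR1 were called higher with GST-PTR1, TLR3 and TLR4 were called lower, and TLR6 was not called. Over all tested genes 20.6% were called, 9.15% higher and 11.4% lower. In CPM the GST and GST-PTR1 libraries were fully separated for each of these 5 receptors, and for 43.1% of all tested genes. The median log2 fold change of the 5 receptors was -0.36, against 0.01 for all tested genes. TLR3 is among the 5 only because it passed the filter in its GST libraries, so this median gives no common direction. The log2 fold changes of TLR7, TLR1, TLR4 and TLR6 were 1.25, 0.71, -0.36 and -0.37, on both sides of 0. Fold changes use library totals scaled by edgeR's TMM factors, which were 1.05 to 1.10 in GST libraries and 0.883 to 0.975 with GST-PTR1, so they differ from the ratio of the RPKM means. With plain totals the median tested gene shifted by -0.20 on the log2 scale, and the split of all calls went from 1549 higher and 1937 lower to 927 higher and 3788 lower. Directions of TLR4 and TLR6 are therefore given below on both scales.

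**Figure D2:**
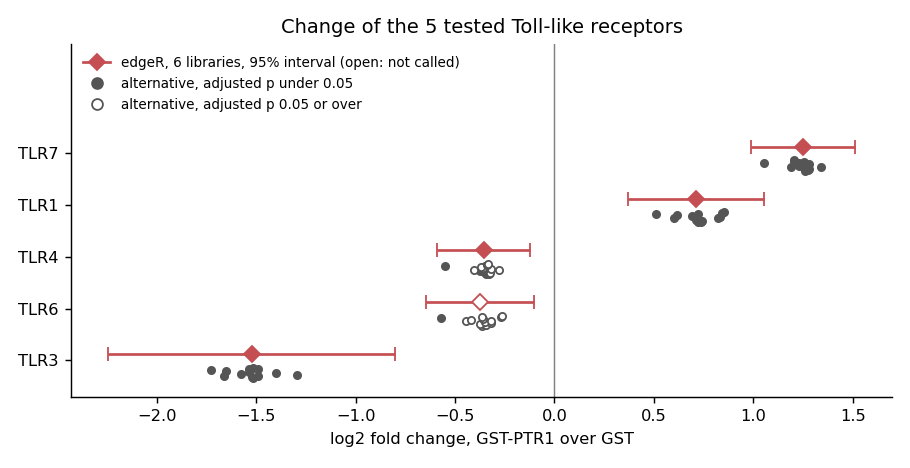
Log2 fold change with GST-PTR1 over GST (x axis) of the 5 tested receptors, with red diamonds and 95% intervals from edgeR on 6 libraries (open where not called) and grey circles for the alternative fits (filled at an adjusted p under 0.05). TLR7 and TLR1 keep filled circles throughout, as does TLR3 in the 13 fits that kept it, most with a filter it passed through GST libraries alone. TLR4 has open and filled circles at -0.55 to -0.28, and TLR6 has 1 filled circle, at -0.57.

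TLR7, an endosomal receptor for single-stranded RNA that lies on the X chromosome (ENSG00000196664, GRCh37, chrX:12885202-12908499, plus strand, 4 merged exons of 5209 bases), had the largest rise among the receptors tested. It had 248, 386 and 397 counts in GST-A, GST-B and GST-C, and 854, 1031 and 1612 counts in PTR1-A, PTR1-B and PTR1-C. In RPKM these were 3.13, 3.69 and 3.25 against 7.17, 6.86 and 6.92. Every GST-PTR1 library stood above every GST library, and the GST-PTR1 libraries lay close together. The edgeR log2 fold change was 1.25 (SE 0.12, 95% interval 0.99 to 1.51, adjusted p = 2.93e-05), a 2.38-fold rise. TLR7 was called in 14 of 14 alternative fits, at log2 fold changes of 1.06 to 1.34.

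TLR8, the other single-stranded RNA receptor of this pair, lies 16240 bases from TLR7 on the same strand (ENSG00000101916, chrX:12924739-12941288). GST-A, GST-B and GST-C held 1, 2 and 1 counts of it and the GST-PTR1 libraries 3, 1 and 0, which is at or below the limit of 3 counts per library in every sample, and no fold is given. That limit corresponds to 0.0671 to 0.197 CPM, depending on the library, and covers counting error only. A change of TLR8 beside that of TLR7 was not detectable at this depth. The antisense gene TLR8-AS1, nearest to TLR7 on the side of higher coordinates, had 0 counts in all 6 libraries, and the ribosomal protein pseudogene MRPL35P4 on the other side had 2 counts in the GST libraries together and 2 with GST-PTR1.

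TLR3 reads double-stranded RNA in endosomes and signals through TICAM1. It was low in these cells and lower with GST-PTR1, with 13, 28 and 24 counts in GST-A, GST-B and GST-C and 6, 10 and 16 in PTR1-A, PTR1-B and PTR1-C. In RPKM that was 0.127, 0.207 and 0.152 against 0.0390, 0.0516 and 0.0532, without overlap. The edgeR log2 fold change was -1.52 (SE 0.33, 95% interval -2.24 to -0.80, adjusted p = 0.00784), or 2.87-fold lower. The filter asks for about 0.432 CPM in 3 libraries, and TLR3 reached this in 3 GST libraries and in 0 GST-PTR1 libraries. It therefore entered the test through the group where it was high. With every gene of at least 1 count tested, which involves no such selection, the log2 fold change was -1.49 (edgeR adjusted p = 0.001). In that fit 15.5% of 31617 genes were called. Its p-values cannot be set beside those of the main fit, since the edgeR adjusted p of TLR7 went from 2.93e-05 to 2.05e-17. The DESeq2 test, on every gene with a count, gave TLR3 a log2 fold change of -1.52 and an adjusted p of 0.0197. TLR3 (ENSG00000164342) spans chr4:186990306-187009223 (GRCh37, plus strand), and the next gene of higher coordinates, FAM149A at 16350 bases, was also lower, at a log2 fold change of -0.77 (SE 0.21, edgeR adjusted p = 0.0246), though not called without GST-C, PTR1-B or PTR1-C (adjusted p = 0.0806, 0.0535 and 0.106). RNU4-64P, on the other side, had 0 counts in every library.

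The 250 bases before the RefSeq start of TLR3 are shown because, among the 7 receptor promoters in the RefSeq table of GRCh38.p14 (TLR2, TLR3, TLR4, TLR5, TLR6, TLR8 and TLR9), this was the only one with a match to any of the 3 motifs searched on both strands. Capitals mark the matches to TTCNNNGAA, the palindrome that STAT factors bind, at 178 and 50 bases before the start.
TLR3 promoter, GRCh38.p14 chr4:186068906-186069155, plus strand: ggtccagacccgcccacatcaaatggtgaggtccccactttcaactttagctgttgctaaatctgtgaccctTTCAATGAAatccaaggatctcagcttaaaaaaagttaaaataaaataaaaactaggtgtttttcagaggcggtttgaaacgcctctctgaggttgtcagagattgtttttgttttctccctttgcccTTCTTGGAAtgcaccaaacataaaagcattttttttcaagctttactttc
Over 35116 promoters of the same length, 6.57% held this motif. The interferon-stimulated response element core, held by 3.02% of all promoters, and the NF-κB consensus, held by 9.96%, matched none of the 7. No match means only that these letters are missing from this window.

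TLR4 signals from the surface and from endosomes, with the help of LY96 and CD14. It had 880, 1261 and 1255 counts in GST-A, GST-B and GST-C and 901, 1172 and 1732 in PTR1-A, PTR1-B and PTR1-C. As RPKM the GST libraries were at 11.01, 11.95 and 10.18 and the GST-PTR1 libraries at 7.49, 7.73 and 7.37. All GST-PTR1 libraries were below all GST libraries, and on TMM-scaled totals the means of 10.3 ± 0.923 and 8.07 ± 0.342 RPKM also came from ranges without overlap. The edgeR log2 fold change was -0.36 (SE 0.11, 95% interval -0.59 to -0.12, adjusted p = 0.0371), or 1.28-fold lower, and on plain totals it was -0.55 with an adjusted p of 0.00355. The call depended on single libraries. It held in 6 of 14 alternative fits, and the adjusted edgeR p was 0.105 without GST-B, 0.0602 without GST-C, 0.108 without PTR1-A, 0.113 without PTR1-B and 0.0722 without PTR1-C, with log2 fold changes of -0.28 to -0.41. TLR4 (ENSG00000136869) lies at chr9:120466610-120479149 (GRCh37, plus strand), between the pseudogene RPL35AP22, with 0 counts in every library, and, 365993 bases away, TPT1P9. TPT1P9 is a pseudogene whose reads may belong to its parent gene, and its log2 fold change was 0.22 (SE 0.10, edgeR adjusted p = 0.152).

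TLR1 and TLR6 each pair with TLR2 to recognise bacterial lipopeptides, TLR1 for triacylated and TLR6 for diacylated ones. TLR1 had 281, 403 and 353 counts in GST-A, GST-B and GST-C and 500, 770 and 1229 counts in PTR1-A, PTR1-B and PTR1-C. Its RPKM values were 4.08, 4.43 and 3.32 against 4.82, 5.89 and 6.07, so the GST-PTR1 libraries were all higher and PTR1-A was the nearest to the controls. The edgeR log2 fold change was 0.71 (SE 0.15, 95% interval 0.37 to 1.05, adjusted p = 0.00838), a 1.64-fold rise, and TLR1 was called in 14 of 14 alternative fits at 0.51 to 0.85. For TLR6 the GST libraries gave 365, 441 and 456 counts, and the GST-PTR1 libraries 323, 459 and 621. In RPKM these were 3.98, 3.64 and 3.22 against 2.34, 2.64 and 2.30, lower in each GST-PTR1 library than in any GST library. The edgeR log2 fold change of TLR6 was -0.37 (SE 0.12, 95% interval -0.64 to -0.10, adjusted p = 0.0535), which misses the threshold. It was called in 1 of 14 alternative fits, on plain library totals, at -0.57 with an adjusted p of 0.00788.

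The ratio of TLR1 to TLR6 needs no scaling between libraries. It was 1.02, 1.22 and 1.03 in GST-A, GST-B and GST-C and 2.06, 2.23 and 2.63 in PTR1-A, PTR1-B and PTR1-C. The difference in mean log2 ratio was 1.08, with no overlap and an exact two-sided permutation p of 0.1. The TLR7 to TLR4 ratio rose in the same manner, from 0.304 ± 0.0179 to 0.928 ± 0.0358 (SD, n = 3), a difference of 1.61 in mean log2 ratio. TLR7 also passed TLR1, from a ratio of 0.860 ± 0.108 to 1.26 ± 0.193. The ratio of TLR4 to TLR6 was 3.07 ± 0.269 and 3.11 ± 0.156 and overlapped between treatments (exact permutation p = 0.8). A ratio shows unequal change and does not say which member changed. With 4 ratios compared at 3 against 3 libraries, no p below 0.1 was possible before any adjustment.

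**Figure D3:**
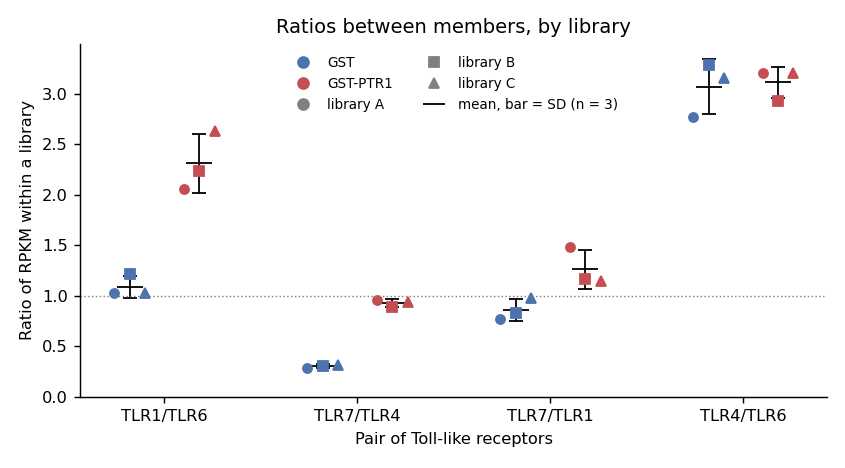
Ratio of RPKM between pairs of receptors within each library (y axis, starting at 0; dotted line at a ratio of 1), GST in blue and GST-PTR1 in red, with mean and SD in black. TLR1/TLR6 goes from 1.09 to 2.31 and TLR7/TLR4 from 0.304 to 0.928 between the means without overlap, while TLR4/TLR6 stays at 3.07 and 3.11.

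TLR1, TLR6 and TLR10 form a cluster on the minus strand of chromosome 4 (GRCh37, ENSG00000174123 for TLR10 at chr4:38773860-38784611, ENSG00000174125 for TLR1 at chr4:38792298-38858438 and ENSG00000174130 for TLR6 at chr4:38825336-38858438), and they are close relatives. The coding sequences of TLR1 and TLR6 were 77.1% identical over 2352 aligned bases, against 63.1% for TLR1 and TLR10 and 50.9% for TLR1 and TLR2. The longest stretch shared by TLR1 and TLR6 is printed because a read that falls wholly inside it cannot be assigned to either gene. It runs over 218 bases, and the aligned stretch of TLR10 follows, with capitals for bases that differ from TLR1. Sequences are from GENCODE transcripts of GRCh38, with positions counted from the start codon.
TLR1, coding bases 1379 to 1596: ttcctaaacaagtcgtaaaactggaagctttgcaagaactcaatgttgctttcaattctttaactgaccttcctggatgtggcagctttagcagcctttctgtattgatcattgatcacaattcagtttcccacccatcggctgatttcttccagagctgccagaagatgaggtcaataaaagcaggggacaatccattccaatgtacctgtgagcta
TLR6, coding bases 1394 to 1611: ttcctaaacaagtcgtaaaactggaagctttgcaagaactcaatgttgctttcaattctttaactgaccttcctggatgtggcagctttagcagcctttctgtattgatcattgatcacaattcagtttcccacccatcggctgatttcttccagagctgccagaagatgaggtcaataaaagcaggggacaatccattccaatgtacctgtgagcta
TLR10, coding bases 1373 to 1587: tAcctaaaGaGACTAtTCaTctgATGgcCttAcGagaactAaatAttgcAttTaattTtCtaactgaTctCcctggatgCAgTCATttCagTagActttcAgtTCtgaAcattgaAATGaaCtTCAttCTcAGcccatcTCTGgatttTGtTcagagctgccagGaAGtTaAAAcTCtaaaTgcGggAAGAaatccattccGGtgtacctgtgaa
TLR10 differed from TLR1 at 73 of these bases and shared no run longer than 37 bases with it. Of all 50-base windows of the TLR1 coding sequence, 10.3% also occurred in TLR6, and of all 100-base windows 5.26%. The read length is not given in the sources used here. Reads with more than 1 reported alignment were left out by the counting options, so counts of TLR1 and TLR6 may be short by that part and their split is uncertain there.

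The count annotation also gives TLR1 and TLR6 a common exon of 57 bases (GRCh37, chr4:38858382-38858438), and reads that overlap both genes were not counted. On GRCh38, 1 annotated TLR1 transcript starts at the same base as TLR6, which is also the RefSeq start of TLR6. The sequence before that start is shown because it precedes transcripts of both genes, although the other TLR1 transcripts start elsewhere and TLR1 itself has no entry in the promoter table.
TLR6 promoter, GRCh38.p14 chr4:38856818-38857067, minus strand: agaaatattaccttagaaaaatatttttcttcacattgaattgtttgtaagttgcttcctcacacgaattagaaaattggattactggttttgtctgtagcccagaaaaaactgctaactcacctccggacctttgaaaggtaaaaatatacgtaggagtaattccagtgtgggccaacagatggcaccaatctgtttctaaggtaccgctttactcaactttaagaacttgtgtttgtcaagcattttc
The nearest gene to both on the side of higher coordinates was FAM114A1, 10860 bases away on the plus strand, which was not called at a log2 fold change of -0.30 (SE 0.32, edgeR adjusted p = 0.54).

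TLR10, a surface receptor of B lineage cells whose ligands are less settled, was found at 5, 3 and 8 counts in GST-A, GST-B and GST-C, against 6, 4 and 10 with GST-PTR1. Its level was 0.0648 ± 0.0254 and 0.0494 ± 0.0150 RPKM, and the treatments overlapped. TLR2 (ENSG00000137462, chr4:154622652-154626851, plus strand), the partner of TLR1 and TLR6, was as scarce, with 6, 6 and 8 counts against 18, 6 and 15. Only PTR1-A stood above the GST range in RPKM, at 0.187, while PTR1-B was below it at 0.0495. In GST cultures TLR1 was thus at 3.94 RPKM and TLR2 at 0.0821 RPKM. TLR5 (ENSG00000187554, chr1:223282748-223316624, minus strand), the flagellin receptor, had 6, 4 and 4 counts against 6, 21 and 17, or 0.0548 ± 0.0262 and 0.0983 ± 0.0521 RPKM, with overlap. When every gene with at least 1 count was tested in edgeR, none of the untested members was called. The log2 fold change was 0.51 (95% interval -0.41 to 1.44) for TLR2, 1.14 (0.17 to 2.12, adjusted p = 0.108) for TLR5 and -0.15 (-1.28 to 0.98) for TLR10, intervals that leave room for changes of 2-fold.

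TLR9, the endosomal receptor for unmethylated CpG DNA, had 0 counts in the 3 GST libraries and 2, 0 and 0 counts in PTR1-A, PTR1-B and PTR1-C. These counts do not measure its transcript. Of its 4903 exon bases in the count annotation (ENSG00000239732, GRCh37, chr3:52255096-52273183, minus strand), 4374 are shared with other genes on the same strand, 3804 of them with ENSG00000173366 and 1033 with TWF2. Reads there were assigned to neither gene, and ENSG00000173366 had 0 counts in all 6 libraries as well. That leaves 529 bases, or 10.8%, in which a TLR9 read could be counted. For TWF2 there were 349, 453 and 577 counts with GST, against 341, 418 and 641 with GST-PTR1. For the other 9 receptors at least 98.7% of the exon bases were their own.

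**Figure D4:**
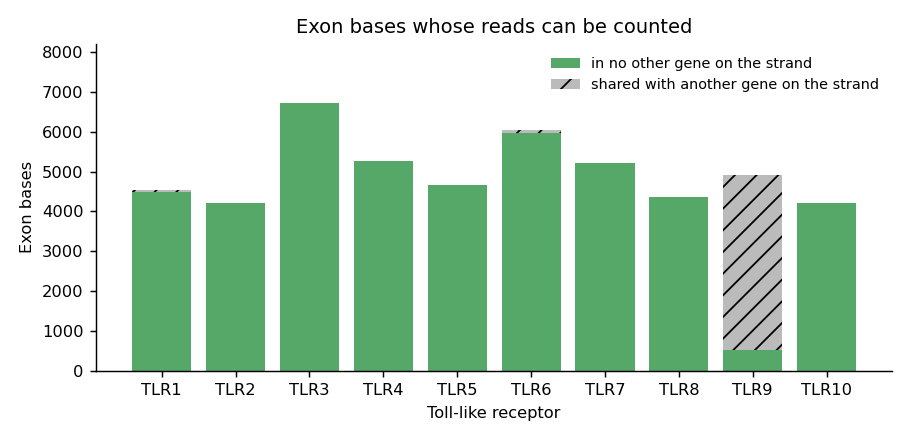
Exon bases of each receptor in the count annotation (y axis), split into bases found in no other gene on the strand (green) and bases shared with another gene on the strand (hatched grey), whose reads were not counted. TLR9 keeps 529 of 4903 bases, while TLR1 and TLR6 each lose 57.

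For each of the 3 most abundant receptors that were tested, the pair of genes with the most similar profile was found from log2 CPM centred on the gene's mean over the 6 libraries, as the smallest Euclidean distance. Nearest to TLR4 were RNPC3, a minor spliceosome protein (distance 0.0763), and ZFYVE16, an endosomal protein (0.0895). Their log2 fold changes were -0.34 (edgeR adjusted p = 0.0847) and -0.40 (0.0421), beside -0.36 for TLR4. Nearest to TLR7 were SAMD9L, an interferon-inducible gene (0.185), and GOPC, a Golgi protein (0.190), at 1.19 and 1.28 beside 1.25. Nearest to TLR1 were GCNT4, a glycosyltransferase (0.179), and the ribosomal pseudogene RPL34P34 (0.210), at 0.66 and 0.70 beside 0.71. These genes were picked for likeness, so their values are a description.

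The other genes of the pathway were taken by role, 81 in all, of which 77 were matched in the table and 65 were tested. With GST-PTR1 35 were called higher and 1 lower, where 9.15% of all tested genes were called higher and 11.4% lower, and the median log2 fold change of the 65 was 0.41 against 0.01. On plain library totals the counts were 31 higher and 9 lower. IL6 and PTGS2 are among the genes called higher, and they passed the filter through the GST-PTR1 libraries alone.

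Of the accessory proteins that help receptors bind their ligands, 5 of 6 were tested, and 1 was called, a count too small to set against the 9.15% of all tested genes called higher. This was CD36, a scavenger receptor that works with TLR2, TLR4 and TLR6, at 1.05 ± 0.0982 CPM in GST cultures and 4.86 ± 0.951 CPM with GST-PTR1 (log2 fold change 2.43, SE 0.24, edgeR adjusted p = 4.8e-05). LY96 (MD-2), without which TLR4 does not bind lipopolysaccharide, was at 11.9 ± 0.44 and 12.4 ± 1.72 CPM, and CD14 had 26 and 32 counts in the 3 libraries together. CD180 and its partner LY86, which modulate TLR4 in B cells, were not called, at log2 fold changes of -0.53 (adjusted p = 0.102) and 0.41 (0.116). Of the 7 tested genes for trafficking and cleavage, 1 was called, which is near that share. This was CTSS, an endosomal protease that cuts nucleic acid receptors, at 0.72 (SE 0.13, edgeR adjusted p = 0.00362). UNC93B1, which carries TLR3, TLR7, TLR8 and TLR9 to endosomes, was at 205 ± 21.9 and 148 ± 17.3 CPM, with a log2 fold change of -0.28 (adjusted p = 0.0918), and CTSB at -0.25 (adjusted p = 0.259) was not called either.

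From here on, a listed gene that rose or fell is one called higher or lower. Of 5 tested adaptors 3 rose, where 9.15% of all tested genes did, and the median was 0.38, against 0.01 for all tested genes. PIK3AP1 (BCAP), which links receptors to PI3-kinase, rose by 1.67 on the log2 scale (SE 0.12, edgeR adjusted p = 2.65e-06), and TICAM1 rose by 1.22 (SE 0.12, adjusted p = 4.76e-05). TICAM1 thus rose while TLR3, 1 of the receptors that use it, fell. MYD88 rose by 0.38 (SE 0.12, adjusted p = 0.0449), a call that held in 5 of 14 alternative fits. Of 12 tested kinases and ubiquitin ligases 3 rose, PELI1 at 2.36, TRAF3 at 1.02 and IRAK2 at 0.89 (edgeR adjusted p = 1.04e-07, 0.00276 and 0.0119), and the median was 0.21. Of 7 tested inhibitors 4 rose, with a median of 1.13, among them TNFAIP3 (A20) at 2.73, ATF3 at 2.52 and TNIP1 at 1.82 (edgeR adjusted p = 7.47e-08, 2.54e-07 and 2.19e-06).

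Of 9 tested transcription factors of the pathway 8 rose, where 9.15% of all tested genes did. Their median was 0.74, against 0.01 for all tested genes. The examples with the smallest p were NFKB1 at 1.84, IRF8 at 1.67 and JUN at 1.11 (edgeR adjusted p = 1.21e-06, 1.63e-06 and 8.14e-05). All 9 tested genes that Toll signalling is known to induce rose by more than 2-fold, with a median log2 fold change of 4.93, also with genes at the detection limit set to their bound. IL6 and PTGS2 passed the filter through the GST-PTR1 libraries alone, so they had to be high there, and without them 7 of 7 rose, with a median of 4.59. IL10 went from 0.894 ± 0.191 to 295 ± 57.0 CPM, CXCL8 from 3.15 ± 0.958 to 280.0 ± 69.8 CPM and NFKBIA from 65.2 ± 5.97 to 462 ± 21.4 CPM. These genes also answer to many other signals, and which signal moved them was not tested.

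Of 10 tested sensors of other families 6 rose and 1 fell, where 9.15% and 11.4% of all tested genes did. Their median was 0.80, against 0.01 for all tested genes. AIM2, a cytosolic DNA sensor, rose by 2.22, NOD2, a sensor of bacterial peptidoglycan, by 2.11, and IFIH1 (MDA5), which reads double-stranded RNA in the cytosol, by 1.27 (edgeR adjusted p = 2.49e-06, 3.33e-05 and 7.32e-05). IFIH1 thus rose while TLR3, which reads the same kind of ligand in endosomes, fell. The gene that fell was NOD1, at -0.78 (SE 0.17, adjusted p = 0.00733), named here after its value was seen. Of the 7 IL-1 receptor family genes, which share the TIR domain, 4 had 0 counts in every library. IL1RAP and SIGIRR were tested and not called, at -0.16 (adjusted p = 0.612) and -0.43 (adjusted p = 0.0626).

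**Figure D5:**
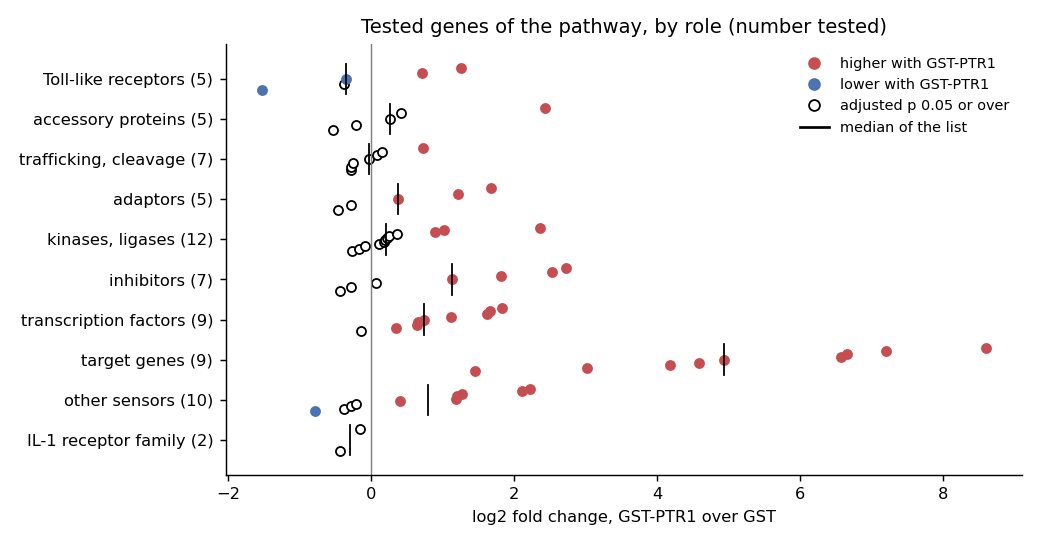
Log2 fold change with GST-PTR1 over GST (x axis) of every tested gene of the pathway, in rows by role with the number tested; red is called higher, blue called lower, open not called, and the vertical black line the median of the row. The receptors lie on both sides of 0, and their median of -0.36 includes TLR3, which passed the filter through GST libraries alone. Transcription factors (median 0.74) lie mostly to the right and target genes (4.93, or 4.59 without IL6 and PTGS2) wholly so.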

How the data were processed

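RPMI8226 cells were sampled in 3 biological replicates per treatment (100 nM GST or GST-PTR1, 6 h). The authors deposited raw read counts per gene, made with featureCounts 1.5.0-p1 on exons of Ensembl release 75 (GRCh37) with reverse strand, leaving out multi-mapping reads and reads that overlap more than 1 gene on the strand. Libraries came from a strand-specific TruSeq mRNA kit. The aligner's settings and the read length are not given in the sources used here. Subread, FastQC and limma are named in the submitters' processing notes. Column names show the treatment and a number that is no replicate number of the labels.

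From these counts, CPM and RPKM were computed on library totals and deposited exon lengths. Counts were tested with edgeR 4.0.16 (filterByExpr, TMM factors, quasi-likelihood test) under R 4.3.3, with Benjamini-Hochberg adjustment over 16926 genes. Single values between treatments were compared by exact two-sided permutation tests. Symbols were matched for 39699 of 63677 gene IDs through the reference tables. IKBKE, CCL3, CCL4, CCL5 and TRAC were not matched and are not analysed here. Detection was limited at 3 counts per library. Libraries of a treatment differed beyond sampling noise (chi-square per gene at least 7.66), so none was counted as a duplicate.

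The test was checked on simulated counts of the same comparison, with 200 genes changed by 1.5 on the log2 scale in each of 3 runs. At least 98.5% of these were recovered among 16681 to 16709 genes tested, with at most 7.08% false calls, a share above the threshold of 0.05. As many genes were raised as lowered, and all came from genes with a higher mean CPM than TLR3. The check therefore does not cover genes as low as TLR3 or changes as small as those of TLR4 and TLR6. The receptor family was picked by symbol, but this choice, the gene lists and the tests were made with earlier results of these data known. Named genes were all receptors, the 3 genes of each list with the smallest adjusted p, the 2 nearest profiles of the 3 most abundant tested receptors, and the nearest named gene on each side of each tested receptor. Alternatives were DESeq2's size factors, plain totals, filters on low counts, DESeq2 1.42.0, limma voom 3.58.1, leaving out each library, and a replicate block. Coding sequences were aligned globally with Biopython 1.88.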

Additional observations from a re-analysis of the deposited data

How the results depend on the processing

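Across 14 alternative fits (other scaling, filters and tools, 6 fits without 1 library each, and 4-library fits), 47 tested genes named in the text were followed, and all kept their direction except CD14, not called in any fit, whose log2 fold change was -0.47 (without GST-C) to 0.033 (without PTR1-B). TLR7 and TLR1 were called in all 14 and TLR3 in the 13 that kept it. Most of these 13 used the same low-count filter, which TLR3 passed through its GST libraries. Only the fit of every gene with at least 1 count and the DESeq2 test did without it. The count of receptors called higher was 2 in every fit. The count called lower was 2, and 3 with plain library totals, where TLR6 joined, 1 when every gene with at least 1 count was tested, 1 when at least 10 counts were asked of every library, and 1 to 2 when a library was left out. TLR4 was the receptor lost, except with the filter at 10 counts, which dropped TLR3. For the other pathway genes, the count called lower went from 1 to 9 with plain library totals and was 1 to 2 with a library left out, while the count called higher was 31 to 38. Of 651 values of single genes under these fits, 45 lost and 8 gained a call. Without exon length, 6 of 10 receptors kept their place in the GST-PTR1 order, and 6 to 10 did so with a library left out, the lowest without PTR1-A; the places that moved belong to receptors whose neighbours overlap.

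The numbers 4 and 5 in the column names occur in both treatments. Deviations of same-numbered libraries correlated at 0.253 and -0.0276, and whether the numbers pair the libraries is not settled by these 2 values, so no pairing was used in the other fits. With a replicate block on these 4 libraries, 2 receptors were called higher and 1 lower, and without the block on the same 4 libraries also 2 and 1. With so few libraries, the p-values of these fits rest largely on a spread shared between genes. Calls in them therefore say little about replicate spread. The depth of the thinnest library, 15202503 counts, limits what can be said of TLR2, TLR5, TLR8 and TLR10.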
